A study of Mus musculus with 8 samples.

Results

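The CXC chemokines described here are 9 genes whose rows were taken from the deposited expression table by symbol: Cxcl1, Cxcl2, Cxcl3, Cxcl9, Cxcl10, Cxcl11, Cxcl14, Cxcl16 and Pf4. They are 9 of 20258 rows with a symbol and 9 of 13615 genes whose values were not constant and could be tested. Macrophages had been grown from the bone marrow of C57BL/6 mice and kept in wells of a plate for 24 h with no stimulus (2 libraries), with the cytokine IL4 (3 libraries) or with bacterial lipopolysaccharide and interferon gamma together (LPS plus IFNg, 3 libraries). No genotype, age or further agent is named for any group, and LPS and IFNg were not given apart, so their shares cannot be told apart. The libraries were strand-specific reads of the 3' end of polyadenylated RNA, and the values are the authors' log2, quantile-normalised expression. A difference of 1 in them is a doubling.

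Chemokines are small secreted proteins that direct the movement of leukocytes along a gradient, and the CXC group is named for a residue that separates the first cysteines. Ligands with a glutamate-leucine-arginine motif before those cysteines, such as Cxcl1, Cxcl2 and Cxcl3, bind Cxcr2 and draw neutrophils, whereas Cxcl9, Cxcl10 and Cxcl11 bind Cxcr3 on activated T cells and natural killer cells and are known as interferon-induced genes. Cxcl16 is made as a membrane-bound protein that is the ligand of Cxcr6 and also takes up oxidised lipoprotein, Cxcl14 is a chemokine of epithelia and other tissues, and Pf4 (Cxcl4) is best known from platelet granules. In macrophages, LPS acts through Tlr4 and NF-kB, IFNg through the kinases Jak1 and Jak2, and IL4 through Stat6.

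The sequences before the start sites of 5 of these genes are shown first, to set the motif matches of 3 neutrophil-attracting ligands beside those of 2 interferon-induced ones. Windows of 250 bases before and 50 after the start were taken from the RefSeq promoter table of GRCm38.p6, which holds 7 of the 9 genes; Cxcl11 and Cxcl16 are named only. The expression values come from reads placed on the older build mm9, so these coordinates belong to the RefSeq table and not to the expression data. For Cxcl1, Cxcl2 and Cxcl3 the 80 bases from 100 to 21 before the start are printed, 5′ to 3′ on the gene's strand. Capitals mark matches to a kappa B consensus (the binding site of NF-kB), to a shorter kappa B form written GGNNTTTCC, or to TATAAA, on either strand. The shorter form was added to the search after these sequences had been seen.
Cxcl1 chr5:90891145-90891224 (plus strand): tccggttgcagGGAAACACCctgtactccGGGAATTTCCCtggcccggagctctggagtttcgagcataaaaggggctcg
Cxcl2 chr5:90903799-90903878 (plus strand): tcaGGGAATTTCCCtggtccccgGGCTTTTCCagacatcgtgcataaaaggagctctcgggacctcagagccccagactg
Cxcl3 chr5:90786001-90786080 (plus strand): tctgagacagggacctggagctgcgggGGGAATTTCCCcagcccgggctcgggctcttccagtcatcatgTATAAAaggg
All 3 stretches hold the same 11-base run, GGGAATTTCCC, which reads the same on both strands apart from its middle base. It begins 71 bases before the start in Cxcl1, 97 in Cxcl2 and 73 in Cxcl3. The run was singled out after the sequences had been seen, and it occurs in 14 of the 32851 promoter windows of the table, or 0.0426%. A second match to the short form, which overlaps no other, begins 89 bases before the start in Cxcl1, on the opposite strand, and 77 bases before the start in Cxcl2. Of the 11 other genes with the run, 4 were tested: with LPS plus IFNg none was past the threshold as higher, and Il16 was lower (log2 difference -4.97, adjusted p = 0.0464 in limma).

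For Cxcl9 and Cxcl10, which lie on the minus strand of the same chromosome, all 250 bases before the start are printed. Capitals mark the same motifs and, in Cxcl10, the core of the interferon-stimulated response element, written GAAANNGAAA.
Cxcl9 chr5:92328080-92328329 (minus strand): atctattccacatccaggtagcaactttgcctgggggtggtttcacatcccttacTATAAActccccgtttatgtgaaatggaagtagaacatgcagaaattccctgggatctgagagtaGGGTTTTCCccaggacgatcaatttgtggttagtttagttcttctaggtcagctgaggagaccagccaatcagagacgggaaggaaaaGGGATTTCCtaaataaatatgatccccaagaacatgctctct
Cxcl10 chr5:92348890-92349139 (minus strand): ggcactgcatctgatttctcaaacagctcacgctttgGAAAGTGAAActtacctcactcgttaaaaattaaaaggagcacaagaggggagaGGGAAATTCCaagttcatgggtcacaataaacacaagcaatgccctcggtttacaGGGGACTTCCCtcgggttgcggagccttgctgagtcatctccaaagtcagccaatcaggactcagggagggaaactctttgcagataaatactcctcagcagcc
Cxcl10 had an interferon response core from 213 to 204 bases before its start and kappa B consensus matches at 159 to 150 and 104 to 94. Cxcl9 had no match to the kappa B consensus and 2 matches to the short form, at 130 to 122 and 42 to 34 bases before the start. Of all windows, 8.46% held the kappa B consensus, 5.82% the short form, 3.44% the interferon core and 13.6% TATAAA, and many matches of the short form lie within a consensus match. The gamma-activated sequence, an element of IFNg-responsive promoters written TTCNNNGAA, was in 8.3% of windows. Among the 7 genes it was only in that of Cxcl14, which also held an interferon core. Other forms of the element were not searched, so their absence from the Cxcl9 and Cxcl10 windows is not shown. The Pf4 window held none of the motifs searched. A match is a run of letters and was not tested as a binding site.

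**Figure D1:**
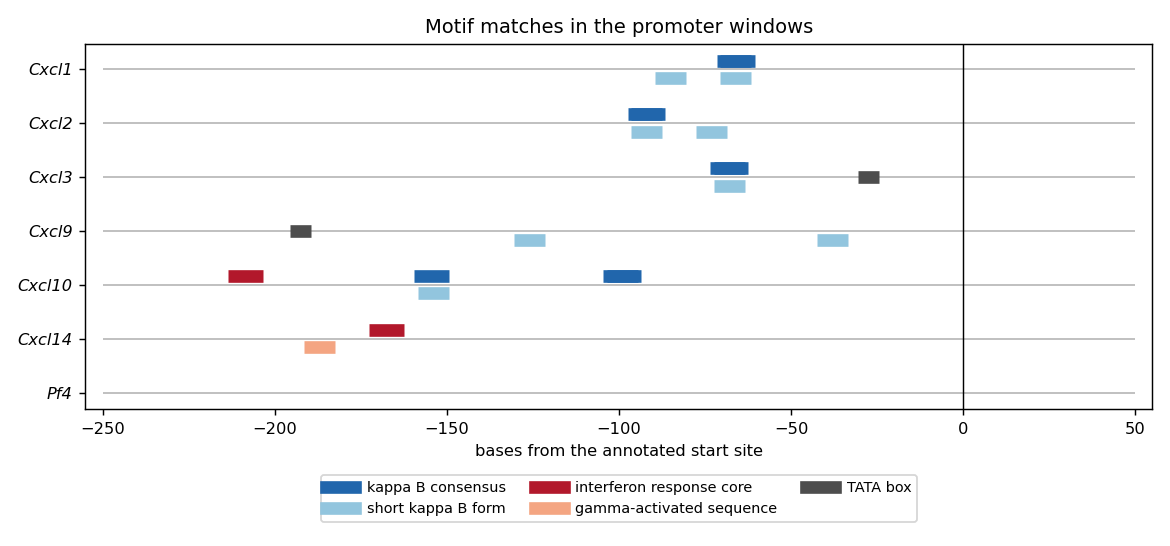
Motif matches in the promoter windows of the 7 genes in the table, with the position in bases from the annotated start site on the horizontal axis and a coloured box for each match. Cxcl1, Cxcl2 and Cxcl3 each show a kappa B match within 100 bases of the start, Cxcl10 shows kappa B and interferon matches, and Pf4 shows none.

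With LPS plus IFNg, the ligands of Cxcr3 and the membrane-bound Cxcl16 rose and Cxcl14 fell. In limma, 4 of the 9 genes passed as higher than without stimulus (Cxcl9, Cxcl10, Cxcl11 and Cxcl16), against 3.72% of all genes tested, and 1 as lower (Cxcl14), against 4.25%. The threshold was a Benjamini-Hochberg adjusted p of 0.05 over all genes. With IL4 none passed as higher (0.514% of all genes), and 1, Cxcl10, passed as lower (0.793%); in either direction 1.31% of all genes passed, against 7.97% with LPS plus IFNg and 12.9% between the stimuli. Between the stimuli, 5 genes were higher with LPS plus IFNg (those 4 and Cxcl2; 5.91% of all genes) and Cxcl14 was lower (6.96%). The median log2 difference of the 9 genes from no stimulus was -0.19 with IL4 and 2.07 with LPS plus IFNg, beside -0.01 and -0.04 over all genes tested. Both comparisons use the same 2 unstimulated libraries.

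Of the genes tested, 1577 and 2588 were listed at 0 in the libraries without stimulus and between 2964 and 3568 in those with one, and no depth comes with the values. The sources used here do not say how zeros were made. In each library 74 to 202 of the rows with a symbol lay below 0, so 0 is not the lowest value. Low values lie on steps that many genes of a library share, so differences from values near 0 are uncertain in size. Whether the replicates are separate animals or cultures is not in the labels, and the p-values therefore measure only how far these libraries differ, which may be technical variation. The defining macrophage markers Csf1r, Emr1 and Cd68 had lowest values of 9.01, 10.18 and 8.56 over the 8 libraries, while Cd163 was at 0 in 7 of them and Fcgr1 was at 2.60 to 4.62 with IL4. Of 10 macrophage markers, 4 fell with IL4, and 3 fell and 1 rose with LPS plus IFNg. Their summed level, on the linear scale, was 24670 to 26130 without stimulus, 14180 to 19510 with IL4 and 14690 to 15820 with LPS plus IFNg. The sum of 11 dendritic-cell markers was 403 to 484, 1260 to 1750 and 112 to 206 in the same order. That sum came mostly from Itgax, at 8.51 and 8.58, then 9.99, 10.47 and 9.96, then 7.04, 6.70 and 6.19. Ccr7 and Xcr1 went otherwise, at 0 without LPS plus IFNg. With it, Ccr7 was at 5.38, 4.61 and 3.88 and Xcr1 at 0, 2.28 and 3.88. Against no stimulus none of the 11 passed with IL4, and 1 rose and 2 fell with LPS plus IFNg. Between the stimuli 1 was higher and 4 lower with LPS plus IFNg. The part of these cell types in the results was not tested. In bulk samples, fewer cells of a type and less RNA per cell cannot be told apart.

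**Figure D2:**
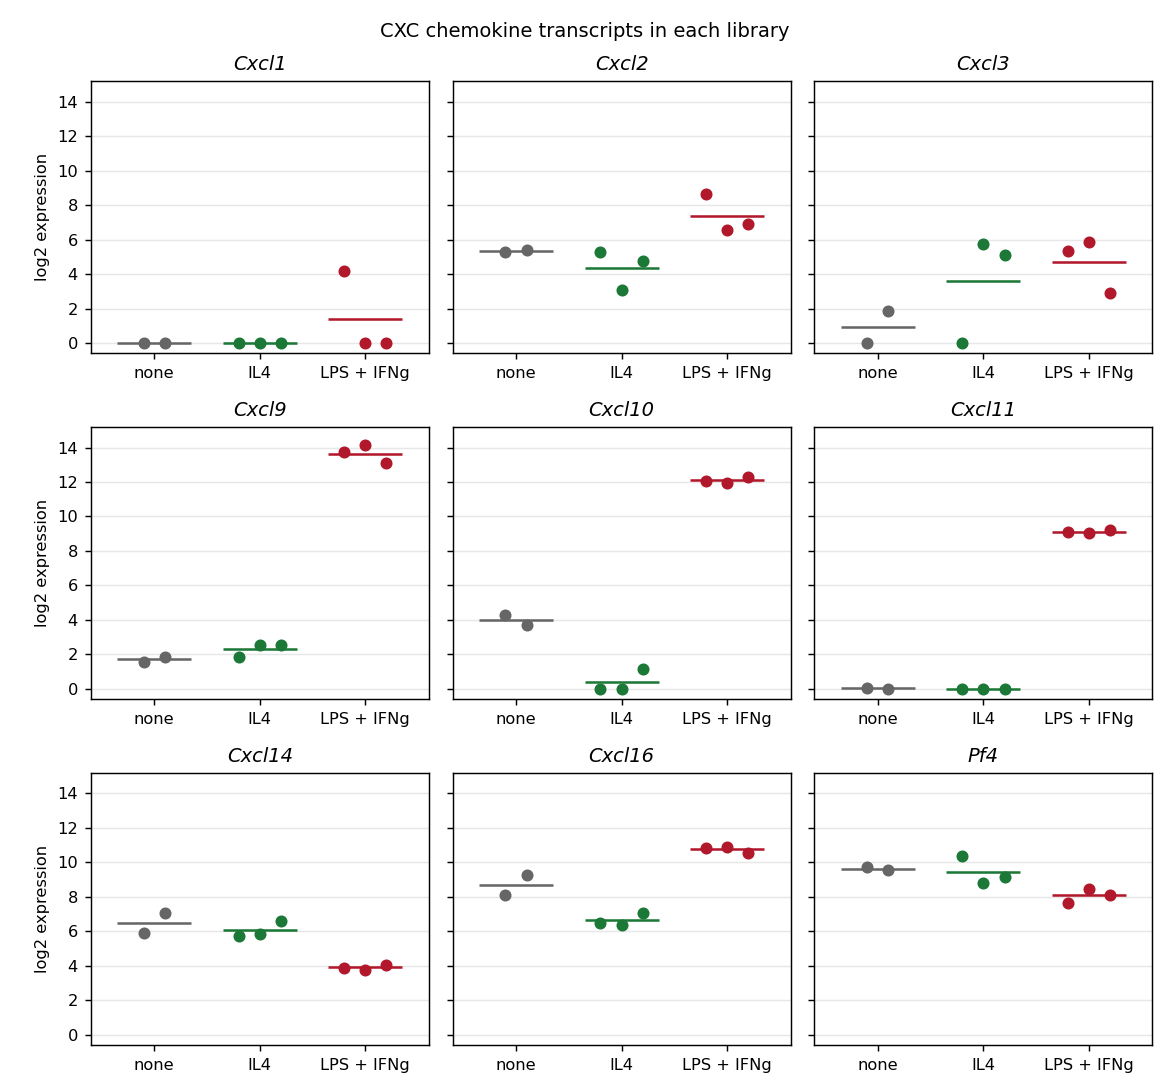
Log2 expression of the 9 CXC chemokines in each of the 8 libraries (points), by stimulus, with a line at each group mean. Cxcl9, Cxcl10 and Cxcl11 lie above 9 in all 3 LPS plus IFNg libraries and below 5 in all others, and Cxcl14 lies lowest with LPS plus IFNg.

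Cxcl9, a T-cell attractant, had log2 values of 1.56 and 1.86 without stimulus, 1.84, 2.54 and 2.56 with IL4, and 13.72, 14.14 and 13.07 with LPS plus IFNg. Only the LPS plus IFNg libraries were high, and those of the other groups overlapped. The difference was 11.93 from no stimulus (SE 0.43, 95% interval 10.93 to 12.94, adjusted p = 7.38e-05) and 11.33 from IL4 (SE 0.38, adjusted p = 2.39e-05). IL4 and no stimulus differed by 0.60 (interval -0.40 to 1.61, adjusted p = 0.639). The unstimulated value of 1.86 was shared by 114 genes of that library, Cxcl3 among them, and that of 1.56 by 62 genes of the other.

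Cxcl10, which binds the same receptor, was at 4.27 and 3.68 without stimulus, 0, 0 and 1.17 with IL4, and 12.08, 11.92 and 12.29 with LPS plus IFNg. No library of a group overlapped with another group, and the order was IL4, no stimulus, LPS plus IFNg. It rose by 8.12 with LPS plus IFNg (SE 0.52, interval 6.91 to 9.33, adjusted p = 0.000477), about 278-fold. It fell by 3.59 on the log2 scale with IL4 (SE 0.52, interval -4.80 to -2.38, adjusted p = 0.0265), and since 2 of the 3 IL4 libraries are listed at 0, the size of that fall depends on how zeros were made. The stimuli differed by 11.70 (SE 0.46, adjusted p = 4.18e-05). The fall with IL4 did not pass without unstimulated replicate 1 (adjusted p = 0.0643), without any 1 of the LPS plus IFNg libraries (0.0781 to 0.0861), which enter only through the shared spread, or with only the 2 groups in the fit (0.125).

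Cxcl11, the third ligand of Cxcr3, was listed at 0.04 and 0 without stimulus, at 0 in all 3 IL4 libraries, and at 9.08, 9.06 and 9.22 with LPS plus IFNg. The LPS plus IFNg libraries were all high and close together, and the others lay at or near 0. The difference from no stimulus was 9.10 (SE 0.72, adjusted p = 0.00114); no fold is given against IL4. RefSeq lists Cxcl11 as a transcribed pseudogene in the C57BL/6J reference, so the values report RNA and not an intact protein. The LPS plus IFNg calls for Cxcl9, Cxcl10 and Cxcl11 against no stimulus held under all 15 alternatives run on single genes, as did those for Cxcl9 and Cxcl10 against IL4.

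**Figure D3:**
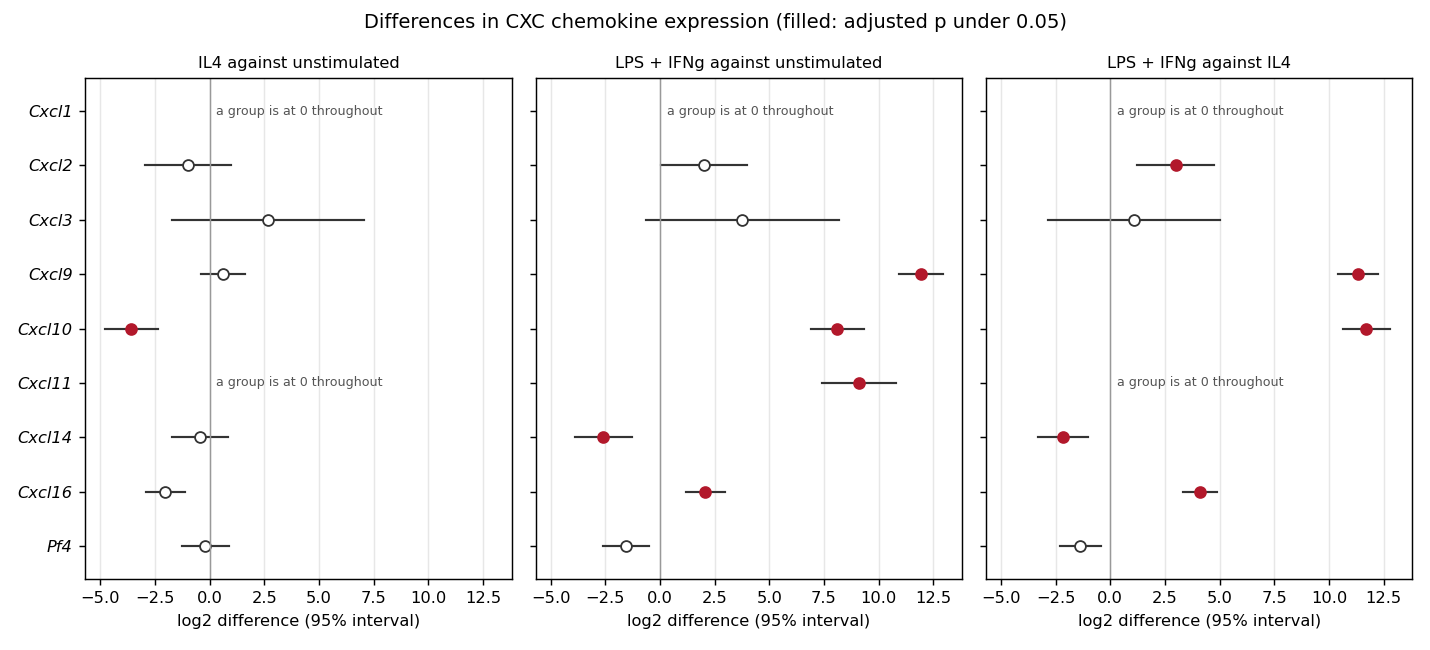
Log2 differences of the 9 CXC chemokines in the 3 comparisons (points) with 95% intervals (lines) from limma; filled points have an adjusted p under 0.05. Differences are not drawn where a whole group is listed at 0. Cxcl9, Cxcl10 and Cxcl11 stand apart at 8.12 to 11.93 from no stimulus with LPS plus IFNg.

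None of the ligands of Cxcr2 passed against no stimulus. Cxcl2, a neutrophil attractant, was at 5.30 and 5.41 without stimulus, 5.26, 3.07 and 4.74 with IL4, and 8.62, 6.55 and 6.90 with LPS plus IFNg. All LPS plus IFNg libraries were above the others, and replicate 1 was the highest. The difference from no stimulus was 2.01 (SE 0.84, interval 0.03 to 3.98, adjusted p = 0.248), and that of IL4 was -1.0 (interval -2.97 to 0.98, adjusted p = 0.719). Against IL4, Cxcl2 was higher with LPS plus IFNg by 3.0 (SE 0.75, 8.01-fold, adjusted p = 0.0407). That call did not pass when any 1 of the 8 libraries was left out (adjusted p from 0.0577 without IL4 replicate 1 to 0.123 without LPS plus IFNg replicate 1).

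Cxcl3 was at 0 and 1.86 without stimulus, 0, 5.75 and 5.08 with IL4, and 5.31, 5.85 and 2.93 with LPS plus IFNg. The IL4 libraries spanned nearly the whole range seen, and the groups with IL4 and with LPS plus IFNg overlapped. Its differences from no stimulus were 2.68 with IL4 (SE 1.88, adjusted p = 0.636) and 3.77 with LPS plus IFNg (SE 1.88, adjusted p = 0.338), with intervals of -1.73 to 7.08 and -0.64 to 8.17. The stimuli differed by 1.09 (interval -2.85 to 5.03, adjusted p = 0.738), and without IL4 replicate 1 by -0.72. Cxcl1 was listed at 0 in 7 of the 8 libraries and at 4.18 in LPS plus IFNg replicate 1, a value that 84 genes of that library shared. These ligands are the 3 that hold the run GGGAATTTCCC.

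Cxcl16, the only one of the 9 with a membrane-bound form, was at 8.09 and 9.26 without stimulus, 6.46, 6.37 and 7.08 with IL4, and 10.81, 10.90 and 10.52 with LPS plus IFNg. The 3 groups did not overlap, and their order was IL4, no stimulus, LPS plus IFNg, as for Cxcl10. It rose by 2.07 with LPS plus IFNg (SE 0.38, 4.19-fold, adjusted p = 0.0184) and was higher than with IL4 by 4.10 (SE 0.34, interval 3.30 to 4.90, 17.2-fold, adjusted p = 0.000544). The difference of IL4 from no stimulus was -2.03 (SE 0.38, interval -2.93 to -1.14, adjusted p = 0.0593), which missed the threshold. Without unstimulated replicate 1, the lower of the pair, that difference was -2.62 and passed (adjusted p = 0.024), while the rise with LPS plus IFNg was 1.48 and did not (0.0836). That rise also did not pass without any 1 of the LPS plus IFNg libraries (0.0566 to 0.0841), whereas the difference between the stimuli held under all 15 alternatives.

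The start of Cxcl16 overlaps Zmynd15 on the opposite strand in the RefSeq annotation. Zmynd15 was at 3.97 and 3.86 without stimulus, 0 in all 3 IL4 libraries, and 4.86, 4.69 and 5.09 with LPS plus IFNg, the same order of groups as Cxcl16. The libraries are strand-specific and read the 3' end of RNA, while this overlap lies at the start of Cxcl16. The sources used here do not say whether counting was by strand, so any reads from the overlap cannot be assigned. How many there were was not tested.

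Cxcl14 was at 5.92 and 7.04 without stimulus, 5.72, 5.86 and 6.57 with IL4, and 3.89, 3.75 and 4.05 with LPS plus IFNg. The LPS plus IFNg libraries were the lowest, and the other groups overlapped. It fell by 2.58 on the log2 scale with LPS plus IFNg (SE 0.55, 6.00-fold lower, adjusted p = 0.0312) and was lower than with IL4 by 4.45-fold (log2 difference -2.16, SE 0.49, adjusted p = 0.0281). IL4 and no stimulus differed by -0.43 (interval -1.71 to 0.85, adjusted p = 0.821). With equal means of 11 housekeeping genes, which moves the median of all genes by 0.63 in the comparison with no stimulus and by 0.47 between the stimuli, the differences were -1.95 and -1.69 and did not pass (adjusted p = 0.0982 and 0.0878). The first also did not pass without unstimulated replicate 2 (0.111) or any 1 LPS plus IFNg library (0.0609 to 0.0751), and the second without IL4 replicate 2 or 3 (0.0537 and 0.0701) or any 1 LPS plus IFNg library (0.057 to 0.0703).

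Cxcl14 is also known from stromal cells. The 10 fibroblast markers listed had a summed linear level of 2622 to 3359 without stimulus, 1339 to 1806 with IL4 and 1389 to 2567 with LPS plus IFNg, and none of the 10 passed the test in any comparison. None was at 0 in every library, and Col1a2 was between 9.66 and 11.11 throughout. The part of stromal cells in the values of Cxcl14 was not tested.

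Pf4, the platelet factor, was at 9.72 and 9.54 without stimulus, 10.34, 8.82 and 9.15 with IL4, and 7.65, 8.46 and 8.11 with LPS plus IFNg. All 3 LPS plus IFNg libraries were below the rest, and the other groups overlapped. The difference from no stimulus was -1.56 (SE 0.45, interval -2.62 to -0.49, adjusted p = 0.0944) and that from IL4 -1.36 (SE 0.41, interval -2.32 to -0.41, adjusted p = 0.0746), so neither passed. Without IL4 replicate 1, which was the highest, the first did (adjusted p = 0.0316), and both did when the 0.25 of genes with the lowest means were left out (0.0236 and 0.0187). IL4 and no stimulus differed by -0.19 (interval -1.26 to 0.87, adjusted p = 0.952).

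Beside Pf4, 15 markers of megakaryocytes and platelets were read. Their summed linear level was 145 to 146 without stimulus, 455 to 1933 with IL4 and 95.7 to 242.5 with LPS plus IFNg. Selp was at 0 in every library, Gp9 was at 0 in 7 of the 8 and at 0.23 in the other, and Ppbp, the platelet chemokine gene next to Pf4, was at 3.71 and 4.66, then 0, 3.52 and 0, then 4.96, 1.17 and 2.93. The higher sum with IL4 came mostly from Itgb3, an integrin chain, at 5.91 and 5.99 without stimulus, 9.37, 10.86 and 8.68 with IL4 and 5.18, 4.36 and 7.60 with LPS plus IFNg. The median difference of the 14 tested markers was -0.45 with IL4 and -0.18 with LPS plus IFNg, and none passed against no stimulus; between the stimuli 1 was lower with LPS plus IFNg. Their part in the values of Pf4 was not tested.

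In each comparison, more genes had libraries that did not overlap than passed the test, over all genes tested as among the members. With LPS plus IFNg and no stimulus, 8 of the 9 did not overlap (36.7% of all genes). With IL4 and no stimulus these were 3, near the 26.5% of all genes, namely Cxcl2, Cxcl10 and Cxcl16, which were all lower with IL4. For Cxcl2 the gap was small, from a highest IL4 value of 5.26 to a lowest unstimulated value of 5.30. Between the stimuli there were 7 (27.1%), and only Cxcl1 and Cxcl3 overlapped.

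Most of the 9 genes lie in 2 blocks of chromosome 5, while Cxcl14 is on chromosome 13 and Cxcl16 on chromosome 11. In the RefSeq gene order the first block runs Cxcl5, Ppbp, Pf4, Cxcl3, Cxcl15, Cxcl1 and Cxcl2. Within it, Cxcl5 and Cxcl15 were listed at 0 in all 8 libraries, and the differences with LPS plus IFNg were -1.56 for Pf4, 3.77 for Cxcl3 and 2.01 for Cxcl2, none past the threshold. The second block runs Cxcl9, Art3, Cxcl10 and Cxcl11, and its 3 chemokines all rose. Its neighbours Naaa, Sdad1, Nup54 and Scarb2 had differences of 0.10, 0.05, -0.32 and -0.73, none past the threshold. Art3, which encloses Cxcl10 and Cxcl11 on the opposite strand, was listed at 0 in all 8 libraries.

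**Figure D4:**
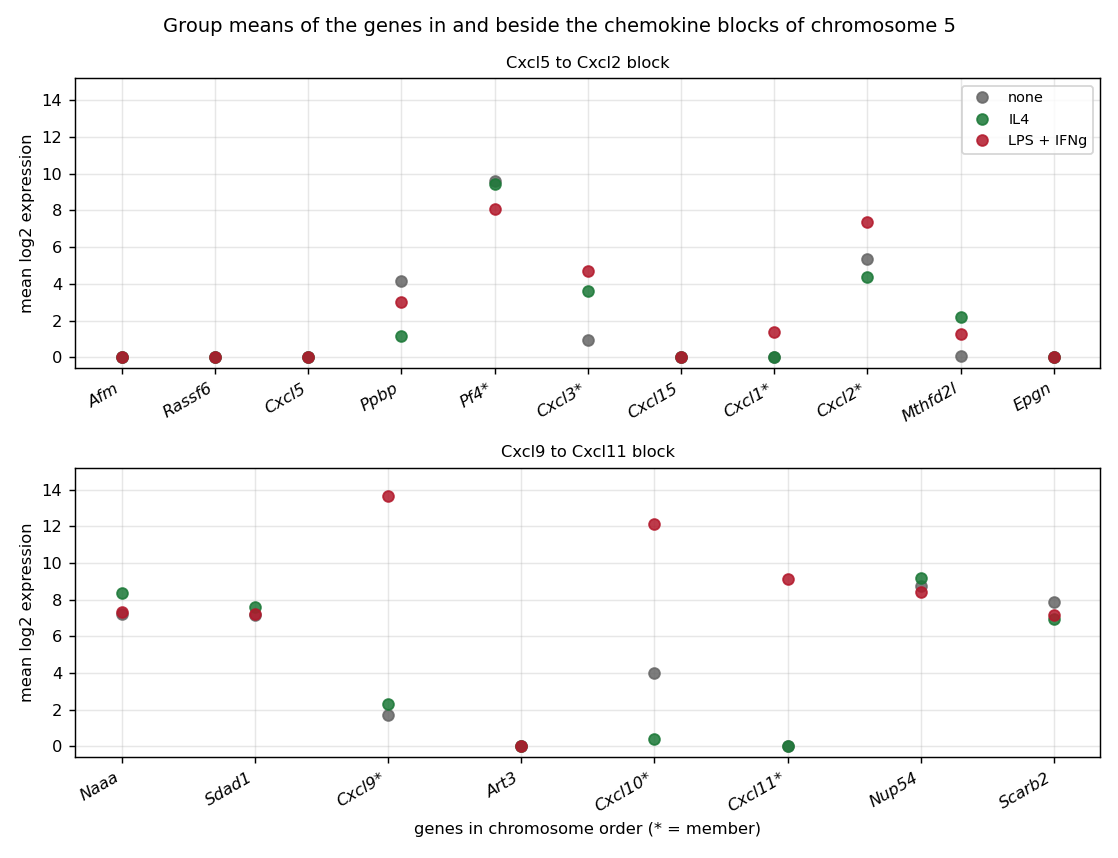
Mean log2 expression by stimulus of the genes in and beside the chemokine blocks of chromosome 5, in gene order (horizontal axis, not to scale; an asterisk marks a described CXC chemokine). In the lower panel the LPS plus IFNg means of Cxcl9, Cxcl10 and Cxcl11 stand far above the other groups, while those of the neighbours Naaa, Sdad1, Nup54 and Scarb2 lie close to them.

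Of 8 CXC receptor genes in the table, Cxcr1 and Darc were at 0 throughout and 6 were tested. With LPS plus IFNg 1 of the 6 fell (4.25% of all genes). That was Cxcr4, the receptor of Cxcl12, at 9.40 and 9.50 without stimulus, 6.29, 5.48 and 5.36 with IL4, and 0, 5.26 and 3.27 with LPS plus IFNg (log2 difference -6.61, SE 1.35, adjusted p = 0.0272). The call held in 7 of 15 alternatives; leaving out any 1 library other than LPS plus IFNg replicates 1 and 2 ended it (adjusted p up to 0.19). Cxcr3, the receptor of Cxcl9 to Cxcl11, was at 2.45 in unstimulated replicate 1 and at or below 0 elsewhere. Cxcr2 was at 3.41 and 3.26, then 2.60, 4.56 and 3.11, then 0, 0 and 2.93 (adjusted p = 0.333 against no stimulus). Of 6 further CXC ligands, Cxcl5, Cxcl13, Cxcl15 and Cxcl17 were at 0 in every library, and neither Ppbp nor Cxcl12 passed in any comparison.

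Of 15 genes of the interferon receptor pathway, 6 rose with LPS plus IFNg (3.72% of all genes), 1 fell (4.25%) and 8 did not pass. The median difference was 0.98. Irf1, a transcription factor of the IFNg response, was at 7.97 and 8.28 without stimulus, 7.78, 7.26 and 6.28 with IL4 and 12.16, 12.01 and 12.14 with LPS plus IFNg (difference 3.97, adjusted p = 0.0023). Irf7, a factor of the interferon response, had differences of 4.09 with LPS plus IFNg (adjusted p = 0.00308) and -2.94 with IL4 (adjusted p = 0.0328). The inhibitors Socs1 and Socs3 rose by 8.35 and 7.47 with LPS plus IFNg. Ifngr1, a chain of the IFNg receptor, was the gene that fell (difference -2.19, adjusted p = 0.0123), and Ifnar1, of the type I receptor, did not pass (0.33, adjusted p = 0.654).

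With IL4, 2 of the 15 rose (0.514% of all genes), Socs1 (5.84) and Jak2 (2.14, adjusted p = 0.0461). The gene that fell (0.793% of all genes) was Irf7, as Cxcl10 did. Irf7 did not pass without any 1 library except unstimulated replicate 1 (up to 0.101), nor Jak2 without any 1 of the 8 (up to 0.172). The rises of Irf1, Irf7, Socs1 and Socs3 with LPS plus IFNg held in all 15 alternatives.

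Of 32 genes of the Tlr4 and NF-kB pathway, 2 rose with LPS plus IFNg, near the 3.72% of all genes tested. The other 30 did not pass, and the median was 0.68. The 2 risers were feedback inhibitors of NF-kB: Tnfaip3 (1.95, adjusted p = 0.0149) and Nfkbia (1.86, adjusted p = 0.0358). Tnfaip3 lost its call when LPS plus IFNg replicate 2 or 3 was left out (up to 0.0649), nor Nfkbia without any 1 of the libraries other than IL4 replicates 2 and 3 (up to 0.204). With IL4, 2 of the 32 fell (0.793% of all genes). Nfkbiz, an inducible partner of NF-kB, was at 5.81 and 6.25 without stimulus, 0 in all 3 IL4 libraries and 7.44, 6.30 and 6.45 with LPS plus IFNg (adjusted p = 0.0144 for IL4). Cd14, the LPS co-receptor, had a difference of -2.87 (adjusted p = 0.0315), which passed with all libraries or without LPS plus IFNg replicate 1 but not without any 1 of the other 7 (up to 0.122). Between the stimuli 7 of the 32 were higher with LPS plus IFNg (5.91% of all genes) and none lower (6.96%). Among the 7 were Nfkbiz, Cd14 (3.25), Nfkbia (2.82) and Irak3 (2.41), all 4 in 15 of 15 alternatives.

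**Figure D5:**
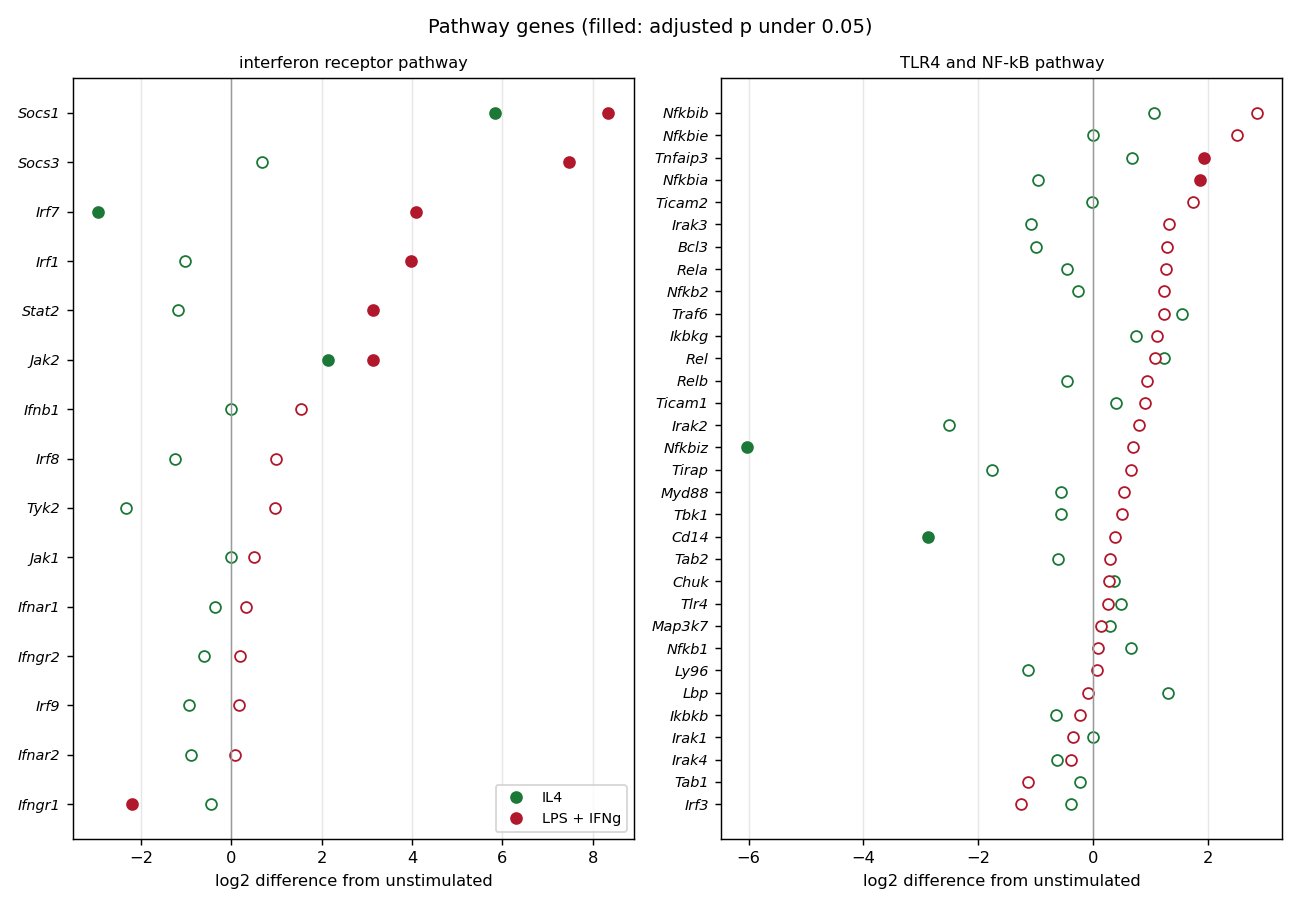
Log2 differences from no stimulus for the 15 interferon pathway genes (left) and the 32 Tlr4 and NF-kB genes (right), with IL4 in green and LPS plus IFNg in red; filled points have an adjusted p under 0.05. The interferon genes hold 6 filled rises with LPS plus IFNg and the NF-kB genes 2, beside 3.72% of all genes tested. Nfkbiz, far left with IL4, is listed at 0 in all 3 IL4 libraries.

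Factors that act on chemokine transcripts or proteins after transcription were read from further lists. Of 12 genes of transcript decay, 1 fell with LPS plus IFNg (4.25% of all genes) and 11 did not pass. Zfp36l1, which binds AU-rich elements, fell by 2.24 on the log2 scale (adjusted p = 0.0023). Zfp36 had a difference of 0.70 (adjusted p = 0.454). Of 19 genes of chemokine processing or clearance, 3 rose (3.72% of all genes) and 3 fell (4.25%) with LPS plus IFNg. Ctsc, a protease that activates granule proteases, rose by 2.92 (adjusted p = 0.00161), and the metalloproteases Mmp8 and Mmp12 fell by 3.22 (adjusted p = 0.0068) and 2.78 (adjusted p = 0.00225). Padi2, which citrullinates proteins, fell by 3.33 (adjusted p = 0.0356), a call that was lost without any 1 library except LPS plus IFNg replicate 2 (up to 0.196). Mmp8 is also a neutrophil marker, and 4 of 12 such markers fell with LPS plus IFNg (4.25% of all genes). The summed linear level of the 12 was 2409 to 2732 without stimulus, 1130 to 1882 with IL4 and 436 to 538 with LPS plus IFNg. The largest values without stimulus were those of S100a9 (10.31 and 10.14) and S100a8 (9.44 and 9.13). Csf3r did not fall, at 7.64 and 6.37 without stimulus and 8.18, 7.80 and 6.97 with LPS plus IFNg. The part of neutrophils in these values was not tested.

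Adam10, a protease that releases Cxcl16 from the membrane, was at 10.45 and 10.75 without stimulus, 10.50, 10.74 and 10.71 with IL4 and 9.45, 10.25 and 10.01 with LPS plus IFNg. Its LPS plus IFNg values were the lowest, but the difference of -0.69 did not pass (adjusted p = 0.193). Mmp13 was the 1 gene of the list that rose with IL4 (2.65, adjusted p = 0.0328), and it did not pass without any 1 library except IL4 replicate 1 (up to 0.151).

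The genes whose values ran closest to each CXC chemokine were found by the root mean square distance of centred log2 values over the 8 libraries. For Cxcl10 these were the interferon-induced GTPases Gbp5 (0.67) and Iigp1 (0.85). Both were lower in every IL4 library than without stimulus, which a choice by likeness over the same libraries favours. Gbp5 was at 3.23 and 4.74, then 0, 0 and 1.54, then 11.36, 12.17 and 11.42. For Cxcl9 they were Clic5 (0.55) and Nos2, inducible nitric oxide synthase (0.76), and for Cxcl11 the cytokine gene Il1b (0.46) and Olfr56 (0.48).

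For Cxcl16 the nearest genes were Aif1, a macrophage actin-binding protein, and Oas1g, an interferon-induced oligoadenylate synthetase, at distances of 0.24 and 0.27. Aif1 was at 8.28 and 8.63, then 6.23, 6.55 and 6.84, then 10.64, 10.64 and 10.34. For Cxcl2 they were Apobec3 (0.51) and Ampd3 (0.52), for Cxcl14 Anxa1 (0.28) and Rpl14 (0.31), and for Pf4 Ncl (0.23) and Rpl35 (0.25). Rpl14 and Rpl35 are ribosomal protein genes, and Ncl is nucleolin, of ribosome assembly. For Cxcl3, Zfp595 and Mtus2 lay at 0.84 and 0.95, and the genes nearest to Cxcl1 were, like it, above 0 in a single library.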

How the data were processed

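Per the labels' protocols, RNA captured on oligo-dT beads was made into barcoded, strand-specific 3' end libraries that were pooled by Actb level and amplified by PCR; no molecular identifiers are named. Per the submitters' processing notes, TopHat and build mm9 were used. Not given in the sources used here are the counting tool, the treatment of zeros and any use of strand in counting. The authors deposited 1 table of log2 values, quantile normalised per its name. Columns were matched to samples by barcode. Depth is not known, and quantile normalisation can hide an overall difference in RNA.

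1 row without a symbol and 6643 constant genes were left out. RefSeq names matched 19940 of 20258 rows. limma 3.58.1 (R 4.3.3) was fitted to the 13615 other genes over all 8 libraries, with a mean per group and an intensity trend, two-sided, with Benjamini-Hochberg adjustment over all genes and a threshold of 0.05. It was tried on simulated normal values with changes added only to genes of higher mean level. That trial does not cover listed zeros or shared low values. The 9 members, the lists and the tests were chosen with earlier results of these data known.

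All 9 members are described; from each list up to 4 genes past the threshold, by size, and up to 2 not past it, by mean level, could be named, with the 2 nearest genes by pattern for each member. Il16, Ifngr1, Cxcr3, Gp9, Zmynd15, Art3, the members' neighbours on the chromosome and some markers were named outside that rule, after their values were seen. Motifs were searched on both strands in 32851 promoter windows of 300 bases (RefSeq, GRCm38.p6): TTCNNNGAA, GAAANNGAAA, TATAAA and the kappa B consensus, and, added after the sequences were seen, GGNNTTTCC and the shared run. No protein sequences were used here, and 1 gene of the interferon list is not reported here. The alternatives tried were a fit without the intensity trend, a fit of only 2 groups, leaving out the 0.25 of genes with the lowest means, adding 1 to the linear values before taking logs again, setting the mean of 11 housekeeping genes equal in all libraries, a block for the replicate number, array weights, a threshold of 0.01, and leaving out each library. Listed zeros were taken as no expression when 1 was added and in the summed marker levels.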

Additional observations from a re-analysis of the deposited data

How the results depend on the processing

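Of the alternatives run on single CXC chemokines, 284 values kept their direction and side of the threshold, 37 lost the call, 6 gained it and 3 turned direction, none of which had passed: Cxcl14 with IL4 (-0.99 without unstimulated replicate 1 to 0.13 without replicate 2), Pf4 with IL4 (-0.64 without IL4 replicate 1 to 0.11 without replicate 2) and Cxcl3 between the stimuli (-0.72 without IL4 replicate 1 to 2.16 without replicate 2). With IL4 against no stimulus, the count of CXC chemokines past the threshold, 1, became 2 with the 0.25 of lowest genes left out or with low values damped, and 0 when the fit held the 2 groups alone, with the replicate block or at an adjusted p of 0.01; it was 0 to 1 with a library left out, and 0 without any 1 of the LPS plus IFNg libraries. With LPS plus IFNg against no stimulus, the count of 5 became 3 with only the 2 groups in the fit, with the replicate block and at an adjusted p of 0.01, and was 3 to 6 with a library left out. Between the stimuli the count of 6 was 4 to 5 with a library left out.

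Over all genes, 178 passed with IL4, or 70 with only the 2 groups in the fit, 8 with the replicate block, 10 at an adjusted p of 0.01 and 105 to 412 with a library left out (412 without unstimulated replicate 1 and 307 without replicate 2, fits in which the lone unstimulated library is assumed to vary like the other groups). With LPS plus IFNg 1085 passed, or 511 with the block, 438 at 0.01 and 701 to 1112 with a library left out; between the stimuli 1752, or 806 at 0.01 and 1194 to 1534. Equal housekeeping means moved the share of higher calls from 39.3% to 52.5%, from 46.6% to 78.4% and from 45.9% to 70.9% in the 3 comparisons; Cxcl9, Cxcl10, Cxcl11 and Cxcl16 passed as higher with LPS plus IFNg against no stimulus under it and Cxcl14 did not pass. The block rests on a shared number alone. Deviations from the group means of same-numbered libraries had r of -0.08 to 0.07 (7 pairs) against -0.07 to 0.08 for other numbers. Deviations within a group cancel out, so these 2 ranges are not independent of each other. Under the block Cxcl10 did not pass with IL4 (adjusted p = 0.115), Cxcl16 and Cxcl14 with LPS plus IFNg against no stimulus (0.0662 and 0.081), and Cxcl14 between the stimuli (0.0659). The cause of these shifts was not tested. With 2 or 3 libraries a group, and values near 0 on shared steps, differences in Cxcl1 and Cxcl3 could not be measured closely.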

Other observations

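Of 13 CC chemokine ligands, the other large chemokine group, 6 rose with IL4 (0.514% of all genes) and none fell (0.793%). With LPS plus IFNg 5 rose (3.72%) and 2 fell (4.25%). Between the stimuli 2 were higher with LPS plus IFNg (5.91% of all genes), Ccl5 and Ccl12, and 7 were lower (6.96%). Ccl5, a T-cell attractant like Cxcl9, was at 3.05 and 3.57 without stimulus, 1.42, 2.54 and 1.81 with IL4 and 12.42, 11.63 and 12.40 with LPS plus IFNg (difference 8.84, limma adjusted p = 0.000332). Ccl24, an eosinophil attractant, was at 4.90, 6.06 and 6.17 with IL4 and at 0 in the other 5 libraries (adjusted p = 0.0163 against no stimulus). Ccl7, a monocyte attractant, rose with both stimuli, by 4.55 with IL4 (adjusted p = 0.00435) and by 3.33 with LPS plus IFNg (adjusted p = 0.00256). Over the 16 alternatives, 0 to 7 of the 13 rose with IL4 and 3 to 5 with LPS plus IFNg, and between the stimuli 1 to 2 were higher and 4 to 7 lower with LPS plus IFNg. Ccl12 lost its call between the stimuli without any 1 of the LPS plus IFNg libraries (adjusted p up to 0.0578).

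Of 11 genes of the IL4 receptor and Stat6 pathway, 3 rose with IL4 (0.514% of all genes). These were the cytokine inhibitors Cish (7.73, adjusted p = 0.0134) and Socs1, and the transcription factor Klf4 (2.81, adjusted p = 0.0176). The interferon list also holds Socs1. That rise of Klf4 did not pass without any 1 library other than IL4 replicates 2 and 3 (up to 0.104). With LPS plus IFNg 6 of the 11 rose (3.72% of all genes) and 1 fell (4.25%). The median difference was 2.86, beside 0.79 with IL4. Klf4 rose there too, by 2.92 (adjusted p = 0.00437), and the stimuli differed by 0.12 for it (adjusted p = 0.89).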
